A study of Mus musculus with 7 samples.

Results

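The transcripts described here belong to a run of Fbxw genes that lie side by side on mouse chromosome 9, measured in single germinal vesicle (GV) oocytes. The members were 10 named genes (Fbxw21, Fbxw13, Fbxw20, Fbxw14, Fbxw28, Fbxw22, Fbxw16, Fbxw19, Fbxw15 and Fbxw24). Each was taken from the transcripts that start in a window of chromosome 9 (GRCm38) around these genes, as the transcript that the deposited table assigns to that gene on the gene's own strand (for several such transcripts, the highest on average). This rule found 8 of the 10 genes, each with 1 transcript on the minus strand, among 33437 transcripts in the table. The rule does not use the measured difference between genotypes, but the genes were proposed with results of these libraries known, so the direction of their change is not independent evidence.

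The 2 genes without a transcript by the rule are accounted for by the annotation. A minus-strand transcript lies over Fbxw15 in GENCODE M21, but the table names it for Gm42756, a gene of the plus strand. Its values are given beside the members and are not counted with them. This match was made after its values were seen. Fbxw22 has no transcript of its own in the table, since its span lies inside the transcript named for Fbxw28.

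F-box proteins are the exchangeable substrate receptors of SCF ubiquitin ligases. The F-box binds the adaptor SKP1, SKP1 binds the scaffold CUL1, and the RING protein RBX1 brings in the ubiquitin-conjugating enzyme. In the Fbxw class the substrate is held by WD40 repeats, and well studied members outside the cluster, such as FBXW7 and BTRC, mark cell cycle and signalling proteins for degradation. Genes of the tandem group on mouse chromosome 9 are known for their expression in oocytes. GV oocytes are the fully grown oocytes of the ovary that have not resumed meiosis. They live on a store of maternal RNA. SETD1B is a methyltransferase that places H3K4me3, a histone mark of active promoters.

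All libraries held 1 GV oocyte from a female, 21 days old, of the strain C57BL6 (C57BL/6OlaHsd in the study's methods), in which both copies of Setd1b carried loxP sites according to the labels. In the 4 Setd1b cKO libraries the female was also positive for Gdf9-Cre, a recombinase driven by an oocyte promoter that acts from early follicle growth onwards, so that Setd1b was present before that stage. The 3 Setd1b WT libraries came from females negative for Gdf9-Cre, although the breeding scheme in the study's methods also counts females with a functional Setd1b allele and Gdf9-Cre as WT. No label ties an oocyte to its mother. The p-values therefore measure the spread between these libraries, which may be oocytes of the same animal.

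Depth was between 8582493 and 12972366 mapped reads per library, and values are reads per 1000000 mapped reads (RPM). Of the mapped reads, 83.6% to 86.8% lay in the table's transcripts in Setd1b cKO and 90.1% to 90.4% in Setd1b WT. Setd1b itself had 8.31, 16.7, 12.8 and 2.68 RPM in cKO replicates 1 to 4 and 17.7, 16.3 and 8.61 RPM in WT replicates 1 to 3 (log2 fold change -0.61, limma adjusted p = 0.533). This value covers the whole transcript and not the floxed segment, so it does not check the labels. Oocyte markers were abundant in every library (11 of 12 in the table). Their summed level was 21282 to 21820 RPM in Setd1b cKO and 25556 to 26487 RPM in Setd1b WT, and 10 of the 11 tested had log2 fold changes below 0, with a median of -0.49. Dppa3, an oocyte factor of the early embryo and the marker with the most reads, was at 0.01. Mos, a kinase of meiotic arrest, was the only called gene of the list, at 39.3% of its WT mean. Markers of granulosa and other follicle cells (10 of 12 in the table) summed to 24.8 to 52.6 RPM in Setd1b cKO and 22.8 to 40.9 RPM in Setd1b WT, of which Cyp19a1, the aromatase, had 19.5 to 30.6 and 17.1 to 27.3 RPM. Inha, the inhibin alpha subunit, had 7.03, 11.4, 13.2 and 0.583 RPM in cKO replicates 1 to 4 and 0.810, 4.32 and 0 RPM in WT replicates 1 to 3 (log2 fold change 1.70, limma adjusted p = 0.225). Among these 10 follicle markers, 8 had the higher mean in Setd1b cKO, among them Cyp19a1 (26.6 against 22.8 RPM) and Fshr (2.39 against 1.502 RPM), and 2, Cyp11a1 and Kitl, in Setd1b WT. With limma 0 of the 4 tested were called, 1 having an unadjusted p under 0.05. Amh and Foxl2 had 0 reads in all but 1 library each. With values scaled by the reads within transcripts, the median log2 fold change of the Fbxw members was -1.41 and 7 were called. Without this scaling it was -1.49 and 8 were called. The part of the marker levels, and of any other effect of the share of reads in transcripts, in the results on the Fbxw genes was not tested.

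The starts of the genes are close copies of each other, which matters for how their RNA can be told apart and for what they share beside their position. RefSeq gives a promoter sequence in GRCm38.p6 for 8 of the 10 genes (for all but Fbxw13 and Fbxw22), from 250 bases before the annotated start to 50 bases after it. The 28 pairs of these promoters were 84.9% to 97.7% identical (median 90.2%). The longest run of bases found in all 8 was 12 bases long. It was held by 13 of 32851 RefSeq mouse promoters, which belong to 12 gene symbols, namely the 8 genes, their neighbours Fbxw18 and Fbxw26, and Gm40505 and Olfr829. The run stands in capitals with 9 bases on either side, 5′ to 3′ on the minus strand, for the 8 genes, because it is the longest sequence that they all have in common. It begins between 26 bases (Fbxw20) and 71 bases (Fbxw19) before the RefSeq start.
Fbxw21, chr9:109162048-109162077: aatcctgctAAATCTTTGGCCgagtcttta
Fbxw20, chr9:109234760-109234789: aatcctgctAAATCTTTGGCCaagccagta
Fbxw14, chr9:109287698-109287727: aatcctgtgAAATCTTTGGCCaagtcttta
Fbxw28, chr9:109339681-109339710: aatcctgtgAAATCTTTGGCCaagtcttta
Fbxw16, chr9:109449166-109449195: aatcctgctAAATCTTTGGCCaagtcttta
Fbxw19, chr9:109495905-109495934: aatcctgtgAAATCTTTGGCCaagtcttta
Fbxw15, chr9:109568289-109568318: aatcctgtgAAATCTTTGGCCaagtcttta
Fbxw24, chr9:109626086-109626115: aatcctgtgAAATCTTTGGCCgagtcttta

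The 30 bases shown were identical in Fbxw14, Fbxw28, Fbxw19 and Fbxw15. In the oocyte transcripts of the table the run does not lie before the RNA but inside its span. For the 6 genes with a transcript over 1 Fbxw gene only and a RefSeq start, the 5′ end of the transcript lay 224 (Fbxw14) to 528 (Fbxw21) bases upstream of the RefSeq start.

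The promoters were poor in CpG dinucleotides, the bases at which DNA is methylated. They held 0 to 3 CpG per 300 bases, against a median of 7 over all promoters, and 7 of the 8 held 2 or fewer, as did 23.3% of all promoters. Their GC content was 47.7% to 50%. Motifs of 6 letters were searched on both strands. TATAAA was in 0 of the 8 promoters (13.6% of all promoters), CACGTG in 0 (7.15%), TAATTG in 0 (8%) and GGGCGG in 0 (35.7%). TGATTG was in 1, that of Fbxw16 (14.0% of all promoters). These matches describe the letters in the window only.

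The RNAs are copies of each other too. Over the 45 pairs of the 10 genes, the GENCODE transcripts were 79.3% to 99.2% identical (median 84.7%). Fbxw14 and Fbxw28 were the closest pair at 99.2%, followed by Fbxw28 and Fbxw22 at 93.4%. Of the stretches of 75 bases in its exons, 47.0% in Fbxw14 and 50.3% in Fbxw28 also occurred in another gene, against 0.566% to 9.78% in the other 8 genes. The authors removed hits of low mapping quality, which can take reads from such stretches. By this measure alone, the values of Fbxw14 and Fbxw28 are the least certain of the 10 genes.

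All 8 members were lower in Setd1b cKO oocytes, and in each of them the 4 cKO libraries lay below the 3 WT libraries. The mean in Setd1b cKO was 29.1% (Fbxw14) to 46.7% (Fbxw13) of the mean in Setd1b WT. All 8 passed the filter on low values, in both genotypes, with 1700 to 106805 reads per member and library. With limma, 8 of 8 were lower and called (more than 2-fold, with an adjusted p under 0.05), where 1.95% of the 18179 transcripts tested were called lower. The 8 without overlap between the genotypes stand beside 7.14% of all transcripts tested in which every cKO library was below every WT library. The median log2 fold change of the 8 was -1.49, and that of all transcripts tested was 0.12. The members are given below from low to high coordinate, all on the minus strand.

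**Figure D1:**
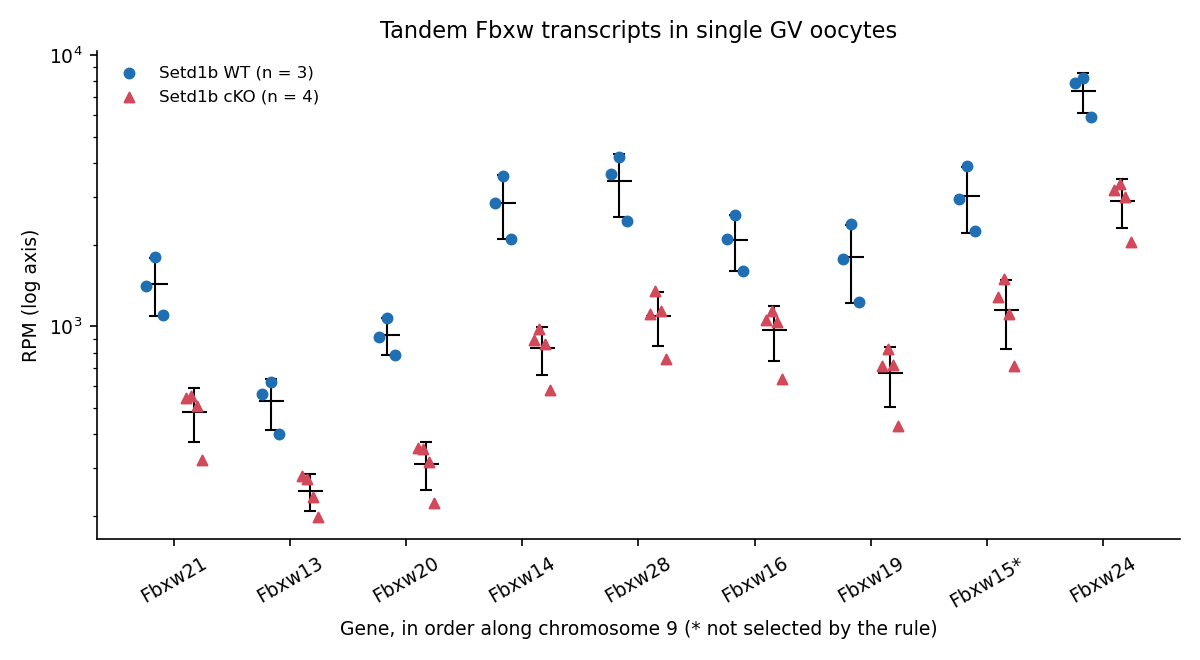
Level of each Fbxw transcript in RPM (log axis) in the order of the genes along chromosome 9, with a circle for each Setd1b WT library (n = 3), a triangle for each Setd1b cKO library (n = 4), and the mean ± SD in black. For the 8 members and the transcript over Fbxw15 (marked with an asterisk) every triangle lies below every circle, and the lowest triangle is that of cKO replicate 4 throughout.

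Fbxw21 (ENSMUSG00000047237.13, transcript at chr9:109131089-109162550) had 542, 554, 509 and 323 RPM in cKO replicates 1 to 4. In WT replicates 1 to 3 it had 1402, 1793 and 1103 RPM. Replicate 4 stood below the other cKO libraries, and even the highest cKO library was well under the lowest WT library. The means were 482 ± 108 (SD, n = 4) and 1433 ± 346 (SD, n = 3) RPM, with a limma fold change of -1.57 ± 0.27 (SE, log2 scale) at an adjusted p of 0.00907.

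Fbxw13 (ENSMUSG00000049314.11, chr9:109179222-109197189) was the member with the fewest reads. The 4 cKO oocytes had 281, 274, 235 and 198 RPM. The 3 WT oocytes had 562, 621 and 402 RPM. Its genotypes came close together, with the lowest WT library at 1.43 times the highest cKO library. The means were 247 ± 38.3 (SD, n = 4) and 528 ± 113 (SD, n = 3) RPM, and the limma fold change, at -1.08 ± 0.23 (SE, log2 scale; adjusted p = 0.0221), was the smallest of the 8 members.

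For Fbxw20 (ENSMUSG00000061701.11, chr9:109210907-109234993) the cKO libraries gave 356, 354, 315 and 223 RPM. The WT libraries gave 914, 1075 and 787 RPM. The genotypes were farthest apart in this gene, where the lowest WT library was 2.21 times the highest cKO library. Means of 312 ± 61.9 (SD, n = 4) and 925 ± 144 (SD, n = 3) RPM corresponded to a limma fold change of -1.58 ± 0.24 (SE, log2 scale) at an adjusted p of 0.00551.

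Fbxw14 (ENSMUSG00000105589.4, chr9:109270836-109287900) fell the most. It had 891, 976, 862 and 585 RPM in the cKO libraries. It had 2858, 3591 and 2093 RPM in the WT libraries. The lowest WT library was 2.14 times the highest cKO library. From 2847 ± 749 RPM (SD, n = 3) in Setd1b WT the mean fell to 828 ± 169 RPM (SD, n = 4), a limma fold change of -1.77 ± 0.27 (SE, log2 scale) at an adjusted p of 0.00581.

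The transcript named for Fbxw28 (ENSMUSG00000054087.11, chr9:109322472-109404802) spans 82.3 kb and holds Fbxw22 as well, so its values are those of both genes together. In the cKO libraries it had 1109, 1348, 1143 and 759 RPM. In the WT libraries it had 3636, 4203 and 2446 RPM. Again cKO replicate 4 and WT replicate 3 were the lowest of their genotypes, with no overlap between the genotypes. The means were 1090 ± 245 (SD, n = 4) and 3428 ± 897 (SD, n = 3) RPM and the limma fold change was -1.65 ± 0.28 (SE, log2 scale) at an adjusted p of 0.00935.

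Fbxw16 (ENSMUSG00000074062.5, chr9:109432319-109449553) had the highest adjusted p of the 8 members. Its cKO values were 1051, 1135, 1036 and 638 RPM. Its WT values were 2094, 2563 and 1595 RPM. The lowest WT library was 1.41 times the highest cKO library, the narrowest gap among the members. Means of 965 ± 223 (SD, n = 4) and 2084 ± 484 (SD, n = 3) RPM gave a limma fold change of -1.12 ± 0.28 (SE, log2 scale) at an adjusted p of 0.0400.

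In Fbxw19 (ENSMUSG00000074061.4, chr9:109478570-109496223) the cKO libraries had 711, 824, 722 and 430 RPM. The WT libraries had 1764, 2384 and 1233 RPM. Among the 8 members the spread within the genotypes was the widest here, with cKO replicate 4 at 57.1% of the mean of the other cKO libraries and WT replicate 3 at 59.5% of the mean of the other WT libraries. The means were 672 ± 169 (SD, n = 4) and 1794 ± 576 (SD, n = 3) RPM, with a limma fold change of -1.40 ± 0.30 (SE, log2 scale) at an adjusted p of 0.0222.

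The transcript over Fbxw15 (ENSMUSG00000074060.10, chr9:109552604-109568553), a gene whose product has been linked to the turnover of the histone acetyltransferase HBO1, had 1278, 1489, 1111 and 717 RPM in the cKO libraries. It had 2948, 3887 and 2240 RPM in the WT libraries. It thus stood in the same order as the counted members, with cKO replicate 4 and WT replicate 3 lowest. The means were 1149 ± 327 (SD, n = 4) and 3025 ± 827 (SD, n = 3) RPM and the limma fold change was -1.41 ± 0.30 (SE, log2 scale) at an adjusted p of 0.0228.

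The transcript named for Fbxw24 (ENSMUSG00000062275.7, chr9:109601117-109790907) is the last and the longest, at 189.8 kb. It spans 5 Fbxw genes (Fbxw24, Fbxw25, Fbxw18, Fbxw26 and Fbxw27), whose reads cannot be told apart in the table. It had 3165, 3356, 3005 and 2042 RPM in the cKO libraries. It had 7869, 8233 and 5931 RPM in the WT libraries. Among all transcripts of the table it ranked 5 by mean reads in Setd1b WT and 14 in Setd1b cKO. The means were 2892 ± 585 (SD, n = 4) and 7344 ± 1238 (SD, n = 3) RPM, with a limma fold change of -1.36 ± 0.27 (SE, log2 scale) at an adjusted p of 0.0174.

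Levels of different genes were compared per kb of exon, where the exons are those of all GENCODE Fbxw genes in the transcript's span. In Setd1b WT this level ran from 349 RPM per kb for Fbxw13 and 381 for Fbxw20 over 514 for Fbxw19, 585 for Fbxw21, 897 for Fbxw24 and 906 for Fbxw28 to 1157 for Fbxw16 and 1347 for Fbxw14. In Setd1b cKO the order was not the same. There Fbxw16 had the highest level at 536 RPM per kb, before Fbxw14 at 392 RPM per kb, and Fbxw20 the lowest at 128 RPM per kb, after Fbxw13 at 163 RPM per kb. Within the WT libraries the neighbours of this order kept it in 3 of 3 libraries, except that Fbxw28 was above Fbxw24 in 1 of the 3. The exons of all isoforms count in this length, 2429 bases for Fbxw20 and 3487 bases for Fbxw19. Their GENCODE transcripts used for the identities have 1511 and 1483 bases, so the places of Fbxw20 and Fbxw19 depend on the length chosen. The order of Fbxw13 and Fbxw20 in Setd1b cKO depends on it too, and the count of libraries does not test it. The order of genes with shared exon stretches, and of those counted together, is uncertain as well.

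The 8 members were also summed to give the part of each library that the cluster took. The sum was 2.11%, 2.45% and 1.56% of mapped reads in WT replicates 1 to 3. It was 0.811%, 0.882%, 0.783% and 0.520% in cKO replicates 1 to 4. No cKO library reached the level of a WT library, and the means were 2.04% ± 0.448 (SD, n = 3) and 0.749% ± 0.158 (SD, n = 4). The transcript of Fbxw24 made up 33.7% to 39.3% of this sum in each library. Of the 8 members, 6 were among the 100 transcripts with the most reads in Setd1b WT, and 3 in Setd1b cKO.

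The members moved together from oocyte to oocyte also within a genotype. In 8 of 8 members cKO replicate 4 was the lowest cKO library and WT replicate 3 the lowest WT library. In 8 of 8 WT replicate 2 was the highest WT library, and in 6 of 8 cKO replicate 2 was the highest cKO library. Among 1750 transcripts with a mean of at least 100 RPM, cKO replicate 4 was the lowest cKO library in 42.7%, WT replicate 3 the lowest WT library in 42.6%, and both held in 36.4%. In the same transcripts WT replicate 2 was the highest WT library in 24.8% and cKO replicate 2 the highest cKO library in 31.5%. As a description over 28 pairs of members, the deviations of log2(RPM + 1) from the genotype means had Pearson correlations of 0.909 to 0.998 over the 7 libraries. The members share the same libraries and depth in these values, and some share reads. In a fit without the lowest library of each genotype, chosen after seeing the data, 8 of 8 members were called lower, and their median change was -1.49 on the log2 scale. That fit called 498 transcripts of the whole table lower, against 355 with all 7 libraries. Leaving out the lowest libraries narrows the members' spread by itself, so the 8 calls are no added evidence.

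The call of single members depended on single libraries, and the direction did not. With any 1 library left out, all 8 log2 fold changes stayed below 0, and the number of members past the threshold was 2 to 8. It was 4 without WT replicate 1, 2 without WT replicate 2 and 4 without cKO replicate 3. Over all transcripts tested the lower calls also fell, from 355 with all 7 libraries to 134, 109 and 232 in these fits. Fbxw14 and Fbxw20 stayed past the threshold in all 7 fits with 1 library left out, with limma adjusted p up to 0.0439 and 0.0424. Fbxw21 and Fbxw28 lost it only without WT replicate 2, with limma adjusted p of 0.0598 and 0.0611. Fbxw24 lost it without WT replicate 1, WT replicate 2 or cKO replicate 3 (limma adjusted p up to 0.0970). Fbxw13 lost it without WT replicate 1, WT replicate 2, cKO replicate 3 or cKO replicate 4 (limma adjusted p up to 0.120). Without cKO replicate 4 it missed the 2-fold limit and not the adjusted p, at -0.98 on the log2 scale with a limma adjusted p of 0.0210. Fbxw19 and the transcript over Fbxw15 lost it without WT replicate 1, WT replicate 2, cKO replicate 1 or cKO replicate 3 (limma adjusted p up to 0.120 and 0.123). Fbxw16 kept it only without WT replicate 3 and lost it in the other 6 fits (limma adjusted p up to 0.180), in that without cKO replicate 4 through the 2-fold limit (-0.93, limma adjusted p = 0.0325). Over these 7 fits the log2 fold changes of the 8 members lay between -1.98 and -0.93.

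Some calls were also lost under other processing of all 7 libraries. Fbxw16 was lost in 11 of its 22 alternatives. Besides the 6 fits above, these were eBayes without trend (limma adjusted p = 0.0500007), scaling by the reads within transcripts (0.0515), no filter on low values (0.110), quantile normalisation (0.0801, log2 fold change -0.94) and the replicate block (0.0101, log2 fold change -0.93). Fbxw24 was lost with no filter (limma adjusted p = 0.107) and with quantile normalisation (0.114, log2 fold change -0.90, the smallest of any member in the alternatives), and Fbxw19 with no filter (0.0612). The transcript over Fbxw15 was lost with no filter (limma adjusted p = 0.0740) and with quantile normalisation (0.0538), and Fbxw13 with the replicate block through the 2-fold limit (0.00725, log2 fold change -0.98). Fbxw14 and Fbxw20 were past the threshold in all 22 alternatives.

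Whether the members fell by the same factor was asked within libraries, where the ratio of a pair of members does not depend on scaling. In 17 of the 28 pairs the log2 ratios of the cKO libraries and those of the WT libraries did not overlap, by differences of 0.20 to 0.69. The same held for 22.9% of all 1530375 pairs of the 1750 transcripts with a mean of at least 100 RPM, a share computed after seeing the data, and the 28 pairs are made of only 8 genes. The exact permutation test (two-sided, 35 possible assignments of the genotypes) gave its smallest possible p, 0.0286, in 16 pairs. After Benjamini-Hochberg adjustment over the 28 pairs these were at 0.05, so that 0 pairs were under 0.05.

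The widest differences were between Fbxw14, which fell the most, and Fbxw13 and Fbxw16, which fell the least. The log2 ratio of Fbxw13 to Fbxw14 was -1.73 ± 0.15 (SD, n = 4) in Setd1b cKO and -2.42 ± 0.10 (SD, n = 3) in Setd1b WT. The log2 ratio of Fbxw14 to Fbxw16 was -0.21 ± 0.06 (SD, n = 4) in Setd1b cKO and 0.44 ± 0.05 (SD, n = 3) in Setd1b WT, so the ratio was above 0 in every WT oocyte and below 0 in every cKO oocyte. By contrast the ratio of Fbxw21 to Fbxw20 was 0.62 ± 0.07 (SD, n = 4) and 0.61 ± 0.13 (SD, n = 3) on the log2 scale. That of Fbxw13 to Fbxw16 was -1.95 ± 0.20 (SD, n = 4) and -1.98 ± 0.07 (SD, n = 3). For the near-identical Fbxw14 and Fbxw28 the log2 ratio differed by 0.12 between the genotypes, lower in Setd1b cKO (exact permutation p = 0.0857, two-sided).

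**Figure D2:**
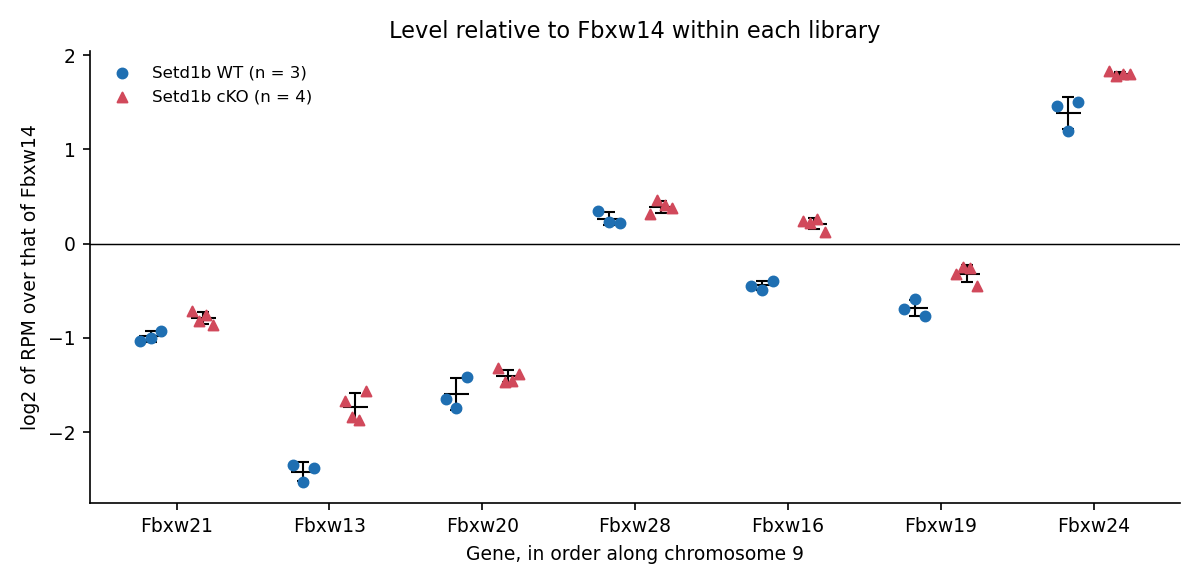
Log2 of each member's RPM over that of Fbxw14 in the same library, in the order of the genes along chromosome 9, with circles for Setd1b WT (n = 3), triangles for Setd1b cKO (n = 4) and the mean ± SD in black. The genotypes do not overlap for Fbxw21, Fbxw13 (-2.42 in Setd1b WT, -1.73 in Setd1b cKO on average), Fbxw16, which crosses from below to above the line of equal RPM, Fbxw19 and Fbxw24, and they overlap for Fbxw20 and Fbxw28.

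The other transcripts of the cluster were examined in the same fit. Besides the 8 members the window held 21 transcripts, of which 12 were tested with limma and 1 was past the threshold and lower, the transcript over Fbxw15. Fbxw23, annotated as a transcribed pseudogene between Fbxw19 and Fbxw15, was covered by 3 minus-strand pieces. The largest of them had 43.7, 52.3, 28.9 and 26.9 RPM in the cKO libraries. In the WT libraries it had 71.8, 84.4 and 59.8 RPM. In all 3 pieces the cKO libraries lay below the WT libraries, as in 7.14% of all transcripts tested. With log2 fold changes of -0.94, -0.90 and -0.87 and limma adjusted p of 0.0699, 0.0760 and 0.0666 none passed the threshold. The promoter that RefSeq gives for Fbxw23 was 47.2% to 57.3% identical to those of the 8 genes with a promoter, whereas the promoters of Fbxw25, Fbxw18 and Fbxw26, which lie in the span of the Fbxw24 transcript, were 88.9% to 95.3% identical to them. The bases after this RefSeq start of Fbxw23 were in no GENCODE transcript of the gene, unlike those of the other promoters compared. This promoter begins at position 109543140, upstream of the measured pieces, whose highest end was 109534999. Whether it is the start of the measured RNA was not tested.

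Transcripts on the plus strand of the window were rare, at a mean of 1.75 to 13.6 RPM in the 6 tested of 9, and their log2 fold changes ran from -0.95 to 0.34. With limma 0 of the 6 were called. In 3 of them, all over a member or Fbxw27, every cKO library lay below every WT library, as in 7.14% of all transcripts tested. These 3 were at -0.83, -0.95 and -0.94 on the log2 scale. Several of the plus-strand transcripts lie over a member, and the strand setting of the counting is not given in the sources used here. Reads of a member and of its antisense transcript therefore cannot be told apart there. Among the 8 other minus-strand transcripts of the window 2 were tested, at -1.09 and 0.16, and 0 were called.

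The genes on either side of the cluster were examined in the same fit. Within 1 Mb on either side of the window 79 transcripts started, of which 44 were tested. Of these 0 were called lower and 1 higher with limma, where 1.95% of all transcripts tested were called lower and 5.71% in either direction, and their median log2 fold change was 0.24. The neighbours closest to the members were Plxnb1, a semaphorin receptor (-0.24), and Tma7, which is linked to translation (0.38), on the low-coordinate side. On the other side was Spink8, a serine protease inhibitor of the Kazal type, at 0.099 to 6.52 RPM (0.08 ± 0.59, SE). Spink8 starts inside the window and is counted with its plus-strand transcripts. Beyond it were 3000002C10Rik, at 0.848 to 3.07 RPM (0.58), Nme6, a nucleoside diphosphate kinase (-0.09), and Cdc25a, a phosphatase that activates cyclin-dependent kinases (0.05). An unnamed minus-strand transcript that overlaps the end of Cdc25a had 3.76, 1.07, 2.79 and 1.98 RPM in the cKO libraries and 6.07, 5.78 and 5.80 RPM in the WT libraries. It was the 1 flanking transcript tested with every cKO library below every WT library, at -1.08 ± 0.32 (SE) on the log2 scale with a limma adjusted p of 0.0781. In the other direction, every cKO library lay above every WT library in Wdr6 (0.57), Map4 (0.70), 5830462I19Rik (0.61) and Cspg5. The called flanking gene was Cspg5, a chondroitin sulfate proteoglycan. It had 10.9, 11.1, 14.98 and 17.4 RPM in the cKO libraries and 3.81, 0.463 and 1.31 RPM in the WT libraries, a limma fold change of 2.50 ± 0.39 (SE, log2 scale) at an adjusted p of 0.00645.

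**Figure D3:**
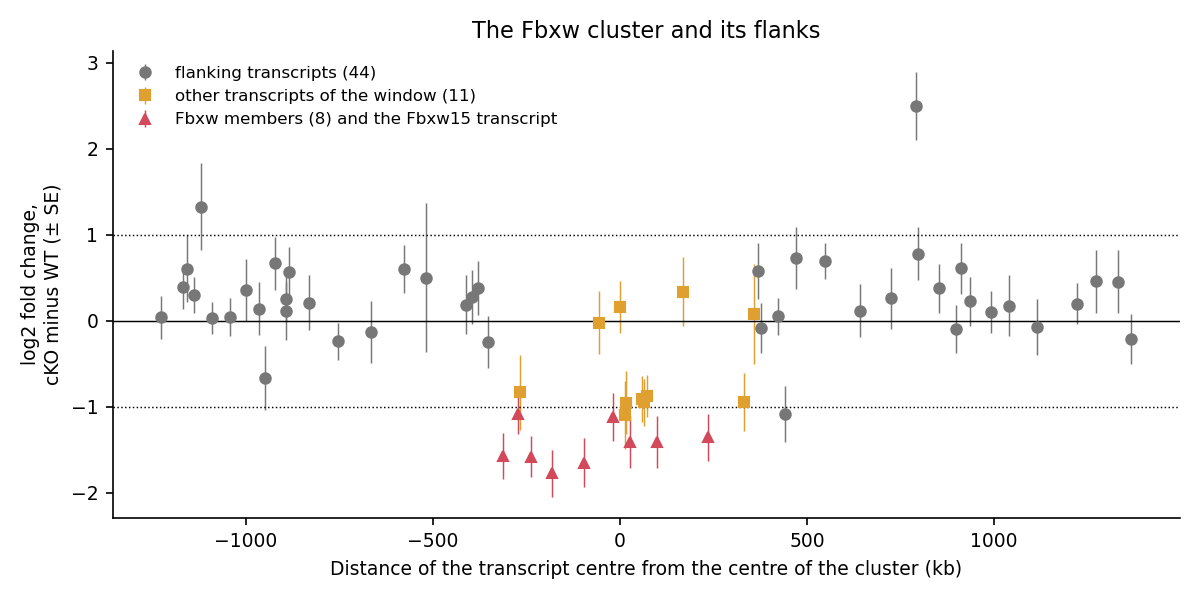
Log2 fold change of the log2(RPM + 1) values, cKO minus WT, with its SE (vertical axis) against the distance in kb of each transcript's centre from the centre of the cluster, for the 8 members and the Fbxw15 transcript (triangles), the other transcripts tested in the window (squares) and those within 1 Mb on either side of it (circles). The triangles lie between -1.77 and -1.08, the circles scatter around a median of 0.24, and the dotted lines mark a 2-fold change.

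The partners of F-box proteins were examined in the same fit. Of 27 genes for the core of the SCF ligase, its E2 enzymes and its regulators (NEDD8 conjugation, CAND exchange factors and the COP9 signalosome), 24 were tested with limma and 0 were past the threshold, 1 having an unadjusted p under 0.05, where 5.71% of all transcripts tested were called in either direction. Their median log2 fold change was -0.02, with a range from -0.61 to 0.43. Voom on the recovered reads also called 0 of them. Skp1a, the adaptor that every F-box protein binds, had 5937, 5461, 5831 and 4473 RPM in the cKO libraries and 5309, 6151 and 4958 RPM in the WT libraries (log2 fold change -0.02 ± 0.25, SE). Cul1, the scaffold, was at -0.35 ± 0.34 (SE), and Rbx1, the RING subunit, at 0.04 ± 0.35 (SE). The standard errors allow for changes in these genes that the test would miss.

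Fbxw genes elsewhere in the genome took far fewer reads than the cluster. Of 10 such genes 7 were tested with limma and 0 called, against the same 5.71%, 2 having an unadjusted p under 0.05, and voom called 0 as well. Fbxw7, the receptor for cyclin E and MYC, had 27.7, 33.8, 49.0 and 24.2 RPM in the cKO libraries. Its WT values were 17.7, 22.1 and 20.4 RPM, each below the lowest cKO library, with a limma fold change of 0.68 ± 0.27 (SE, log2 scale) at an adjusted p of 0.168. Btrc, the receptor for beta-catenin and IκB, was at -0.26 ± 0.44 (SE, limma adjusted p = 0.797).

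**Figure D4:**
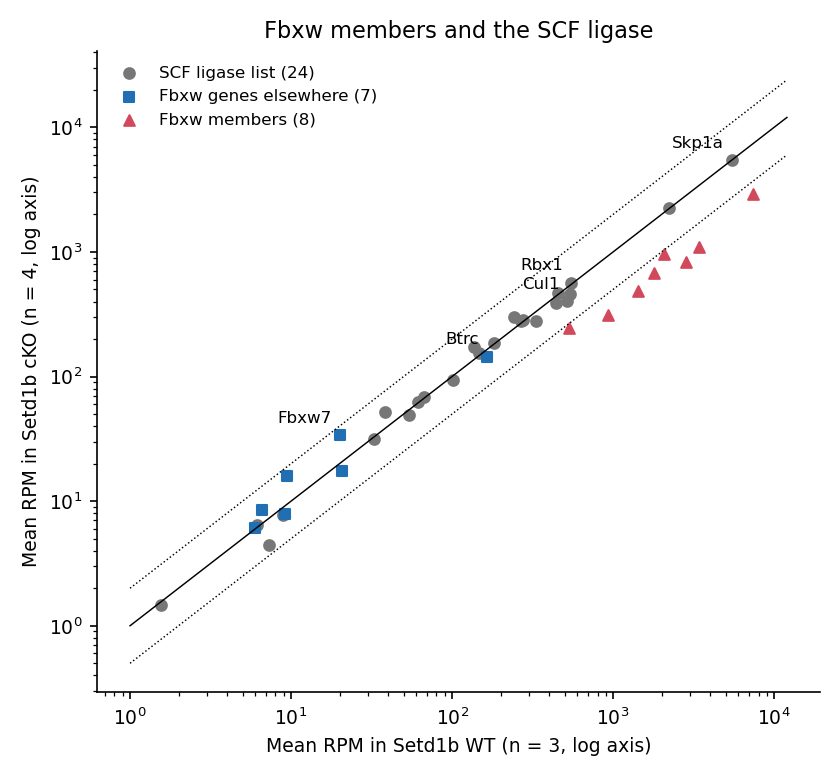
Mean RPM in Setd1b cKO (n = 4) against mean RPM in Setd1b WT (n = 3), both on log axes, for the 8 Fbxw members (triangles), 24 genes of the SCF ligase list (circles) and 7 Fbxw genes elsewhere in the genome (squares), with lines for equal levels and for a 2-fold change (dotted). The 8 members lie under the lower dotted line at 29.1% to 46.7% of the WT mean, and the 24 SCF genes lie between the dotted lines, with Ube2m lowest relative to its WT mean (60.8%).

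The genes whose log2(RPM + 1) over the 7 libraries was most like the mean of the 8 members were sought among 8182 genes outside the cluster and its flanks with a mean of at least 8 RPM. They were Abi3bp, an extracellular matrix protein (Pearson correlation 0.995), Gm13199, a predicted gene (0.987), Pdhx, component X of the pyruvate dehydrogenase complex (0.987), Sfmbt1, an MBT-domain chromatin protein (0.987), and Patj, a scaffold of cell polarity complexes (0.985). These correlations describe 7 libraries of 2 genotypes, and genes that differ between the genotypes score high by that alone. Pdhx had 183, 220, 213 and 111 RPM in the cKO libraries and 493, 533 and 378 RPM in the WT libraries, so it too had its lowest values in cKO replicate 4 and WT replicate 3.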

How the data were processed

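Single GV oocytes were lysed and their cDNA amplified with the SMARTer Ultra Low RNA kit before library construction (NEBNext Ultra). The authors trimmed reads, mapped them with Hisat to GRCm38, removed hits of low mapping quality and quantified them in SeqMonk over oocyte transcripts with merged isoforms. The labels' tool list also names bcl2fastq 1.8.4 and featureCounts 1.4.4. The table they deposited holds log2 RPM, relative to each library's mapped reads, and 0.9 read stands where a transcript had none.

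Whole reads were recovered from the steps of the values (100% of values up to 1000 reads, tolerance 0.02). Genotypes were compared with limma 3.58.1 in R 4.3.3 (lmFit, eBayes with an intensity trend) on log2(RPM + 1), over the 18179 transcripts that reached 1 RPM in 3 or more libraries, with Benjamini-Hochberg adjustment. Called transcripts, or those past the threshold, changed more than 2-fold with an adjusted p under 0.05. Fold changes on this scale understate changes of low transcripts. The fit was tested on simulated data. Exact permutation tests counted the splits with an absolute difference in means at least as large. Transcripts other than the members were named by GENCODE M21 spans (overlap of at least 0.5 of the union on the same strand) or else by the table. Sequences came from RefSeq (GRCm38.p6) and GENCODE. Identities came from global pairwise alignments with biopython 1.88 and were counted over aligned bases, without gaps. Python 3.11.15 was used. Counting error is small at the members' depth, and intervals for it are not given.

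The members, the SCF, Fbxw and marker lists, and the rule for named genes were chosen with earlier results of these data known. Named were all members, the called transcripts among the neighbours, at most 5 SCF or Fbxw genes and the 5 genes of most similar pattern. The nearest neighbours, the transcript over Cdc25a, the flanking genes without overlap, Fbxw23 and the marker genes were named after their values were seen.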

Additional observations from a re-analysis of the deposited data

Results flagged for a closer look

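Dixon's test for a sample far from the others was applied to the 4 Setd1b cKO libraries in 19 values, which were the level of each of the 9 Fbxw transcripts on the RPM and the log2(RPM + 1) scale and the summed share of reads. Chance alone gives about 1 such sample in 20 groups, and the transcripts vary together, so these are not independent. In Fbxw21, cKO replicate 4 (323 RPM, against 509 to 554 RPM in the other cKO libraries) stood apart by 0.844 of the range on the log2 scale, over the critical value for 4 samples. In Fbxw16, cKO replicate 4 (638 RPM, against 1036 to 1135 RPM) stood apart by 0.842 of the range on the log2 scale. On the RPM scale the same gaps were 0.807 and 0.801 of the range, under the critical value. Without cKO replicate 4, Fbxw21 stayed past the threshold, and Fbxw16 was under the 2-fold limit, at -0.93 on the log2 scale.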

How the results depend on the processing

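All 8 members kept their direction in every alternative. Their median log2 fold change was between -1.67 and -1.30, both of these values coming from fits with 1 library left out. The number of members past the threshold was 2 to 8 with single libraries left out, and 5 with no filter on low values, where more transcripts share the adjustment. With the replicate block, which leaves cKO replicate 4 without a partner, 6 members passed, and the median was -1.30. Same-numbered libraries deviated with correlations of 0.19, 0.29 and -0.13, and cKO replicate 4 with WT replicate 3 at 0.61. These values show no pairing by number, but they cannot exclude that same-numbered oocytes were collected together. Quantile normalisation gave 6 members, and voom on the recovered reads gave 8 with either library size. The count of neighbouring transcripts called lower, 1 in the report, was 0 with no filter and with quantile normalisation, 4 after centring on the median gene, 2 with library weights, with the replicate block and with voom on median-of-ratios sizes, and 0 to 2 with single libraries left out. The cause of these changes was not tested. The SCF ligase list and the list of Fbxw genes elsewhere each had 0 calls in all 23 alternatives. Over all transcripts tested, 355 were called lower and 683 higher with limma. The balance of lower and higher calls turned with the scaling, to 531 and 458 after centring on the median gene, 442 and 428 with quantile normalisation, and 415 and 327 with voom on median-of-ratios sizes. The lower count was 554 with library weights and 109 to 232 without WT replicate 1, WT replicate 2, cKO replicate 1 or cKO replicate 3. The higher count was 171 to 392 without these libraries, 1197 with library weights, 315 with a pseudocount of 5 RPM, 443 with voom on library totals (328 lower), 396 with no filter and 1029 without both of the lowest libraries. The exact permutation test of the ratios was first computed with the tail doubled, where its smallest p is 0.0571 and the smallest adjusted value 0.0941. The fit without both of the lowest libraries and the count with the Fbxw15 transcript (9 of 9, median -1.41) were chosen after seeing the data.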
